A study of Mus musculus with 9 samples.

Results

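The vascular endothelial growth factor (VEGF) family and its counterpart, pigment epithelium-derived factor (PEDF), were followed through the 3 layers that face each other at the back of the mouse eye. The members were the genes whose name in the array files was Vegfa, Vegfb, Vegfc, Figf, Pgf, Kdr, Flt1, Flt4 or Serpinf1, which gave 9 of the 31829 gene names on the array, read by 12 of its 39429 probes. Figf is the older name of Vegfd, and Serpinf1 encodes PEDF. Choroid (CH), retinal pigment epithelium (RPE) and photoreceptors (PR) were cut by laser from frozen eyes. The mice were untreated female C57BL/6 mice, of the J strain by the study's methods. They were labelled as 6 months old (the study's methods give a slightly younger age). Each tissue had 3 arrays, with 1 whole eye behind each sample. No gene was altered in any group. On every array amplified RNA of the tissue carried Cy5 and 1 common reference, RNA of RPE and choroid together, carried Cy3, so a level is given throughout as the log2 ratio of Cy5 to Cy3. A value of 0 means the level of that mixed tissue, and values of different probes are not levels that can be set against each other.

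VEGF ligands are secreted proteins that act on receptor tyrosine kinases of endothelial cells. Vegfa binds both Flt1 (VEGF receptor 1) and Kdr (VEGF receptor 2, the main signalling receptor of blood vessels), Vegfb and Pgf bind Flt1, and Vegfc and Figf act mainly on Flt4 (VEGF receptor 3), the receptor of lymphatic endothelium. The RPE is known to release VEGF towards the fenestrated capillaries of the choroid, which depend on it, and to release PEDF, a serpin without protease inhibitor activity that restrains vessel growth and protects neurons.

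The tissues carried the markers of their labels, and markers of neighbouring layers beside them. Rod markers were high on PR arrays only (list mean of 10 genes between 3.44 and 3.63, against -1.34 to 0.17 on the other arrays), and 3 of them were saturated on every PR array. Of 10 RPE markers, 7 were higher in RPE than in CH by the test used below, but their mean on CH arrays was still between 0.28 and 1.10, against 1.74 to 2.23 on RPE arrays and -2.91 to -2.75 on PR arrays, and 4 of them were saturated on every RPE array. Best1, a defining RPE channel, was well above background on 1 RPE array, on 1 PR array and on no CH array. Its mean was -0.06 in RPE and 0.31 in PR, against the direction of the list, and it was not called. Markers of blood endothelium overlapped between RPE and CH arrays in their mean. The mean of 18 genes was between 1.44 and 1.98 in CH, between 1.47 and 1.64 in RPE and between -2.30 and -2.09 in PR. By the test used below, 0 of the 18 were called between RPE and CH. Of them 4 had an unadjusted p below 0.05 in limma, all lower in RPE, where 15.7% of all probes were lower at that p. Ptprb (RPE minus CH -0.87, limma adjusted p 0.00391) and Vwf (-0.67, limma adjusted p 0.00392) missed only the fold limit of the test used below. Fibroblast markers did separate those layers, with a mean of 8 genes between 0.83 and 1.14 in CH and between -1.18 and -0.86 in RPE, and 7 of 8 lower in RPE. RPE replicate 2 stood apart from the other arrays, with 91.8% of its spots well above background in Cy5 against 63.1% to 71.9%. In such samples, fewer cells of a type and less RNA per cell cannot be told apart.

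The probes decide what was measured, so sequences are shown here for the genes with a pair of probes and for Flt1. Flt1 was the member with the widest difference from PR in the fit reported. Sequences are from the array files and in the sense direction, 5′ to 3′. Vegfa, Kdr and Serpinf1 each had 1 probe nearer the 3′ end, called the 3′ probe here, and 1 probe upstream of it. The distance of these probes from the end of the transcript was not measured. The upstream Serpinf1 probe, shown whole, has 1 reading frame without a stop codon. Of the other probes shown, the first 30 bases are given.
Vegfa, 3′ probe, chr17:46154387-46154446: cagatcggtgacagtcactagcttgtcctg
Serpinf1, 3′ probe, chr11:75223582-75223641: acttaatgtctcagtgctctacagaacccc
Serpinf1, upstream probe, chr11:75229163-75229222: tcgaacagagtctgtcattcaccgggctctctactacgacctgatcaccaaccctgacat
Kdr, 3′ probe, chr5:76329309-76329368: ctactgtatcctttagaattttaacctata
Kdr, upstream probe, chr5:76330395-76330454: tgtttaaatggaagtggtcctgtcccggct
Flt1, chr5:148373791-148373850: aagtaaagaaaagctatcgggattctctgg
Positions are those of the files, on mm9, and these probes all lie on the minus strand. The upstream probe begins 5581 bases before the 3′ probe in Serpinf1 and 1086 bases before it in Kdr. The Pgf probe covers 2003 bases of chromosome 12 with 60 bases of sequence, so it crosses at least 1 splice junction. A gene with a pair of probes is reported by its brighter one, which was the 3′ probe in each case. The other is given beside it. The paper states that labelling started at the 3′ end, to lessen effects of RNA degradation. What this does to the upstream probes was not tested.

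Levels of the family were higher in RPE and in CH than in PR almost throughout, and Serpinf1, at its 3′ probe, was the 1 member called between RPE and CH. A probe was called when limma gave a fold change above 2.5 with a Benjamini-Hochberg adjusted p below 0.01 over all probes. Of the 9 members, 8 were higher in RPE than in PR, where 10.2% of all probes were called in that direction, and 8 were higher in CH than in PR, where the share of all probes was 12.0%. The exception was Flt4 in both. Between RPE and CH, 0 members were higher in RPE (background 0.185%), and 1, Serpinf1, was higher in CH (background 1.55%). At an unadjusted p below 0.05 in limma, 1 member, Vegfa, was higher in RPE and 3, Serpinf1, Figf and Pgf, were higher in CH, where 17.9% and 15.7% of all probes passed. In PR, 0 members were higher than in RPE or in CH (backgrounds 5.22% and 6.40%, and 0 at an unadjusted p below 0.05). The median difference over the members was 1.99 for RPE minus PR, 2.02 for CH minus PR and 0.03 for RPE minus CH, on the log2 scale, where the medians over all probes were -0.01, -0.06 and 0.04. The comparisons share arrays, so the 2 counts against PR are not separate evidence. The layout of slides also bears on them. PR replicates 1 and 3 lay on a slide without CH or RPE, and CH and RPE replicates 1 and 3 on a slide without PR. Replicate 2 of each tissue shared the other slide. A difference against PR is therefore largely confounded with slide.

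**Figure D1:**
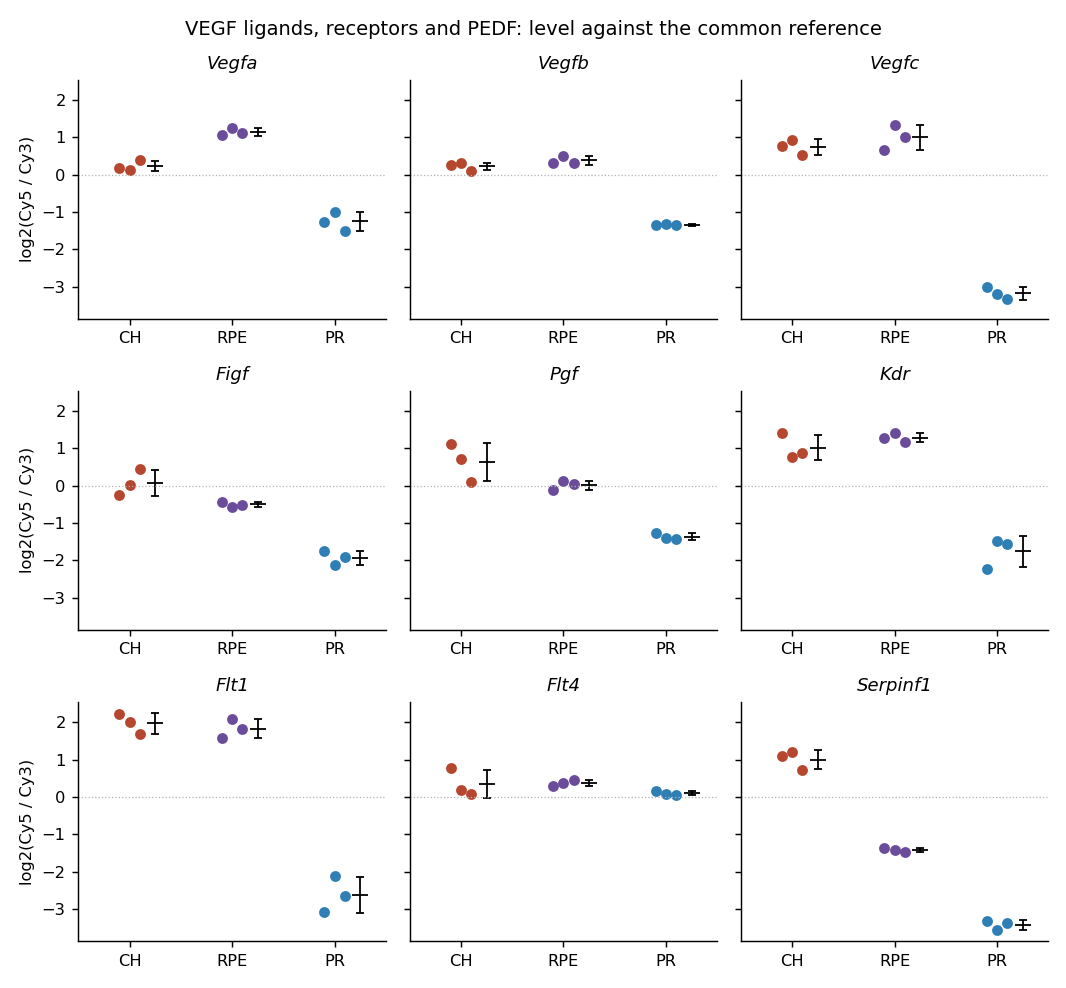
Log2 ratio of Cy5 to Cy3 (vertical axis, same scale in every panel) of the 9 members, at 1 probe per gene, on the 3 arrays of CH, RPE and PR. Points are arrays, and the bar beside them is the mean with its SD. PR arrays lie below all others in every panel but Flt4, and Serpinf1 is the panel where CH and RPE lie farthest apart.

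Among the ligands, Vegfa was the one whose difference between RPE and CH passed the limit on the adjusted p. Its 3′ probe read 0.17, 0.13 and 0.40 on the CH arrays, 1.05, 1.25 and 1.11 on the RPE arrays and -1.26, -0.99 and -1.51 on the PR arrays. The tissues did not overlap, in the order RPE, CH, PR. RPE exceeded PR by 2.39 (SE 0.14, 5.24-fold, limma adjusted p 4.33e-07) and CH exceeded PR by 1.49 (SE 0.14, 2.80-fold, adjusted p 9.69e-06). RPE exceeded CH by 0.90 (SE 0.14, 1.87-fold), which passed the limit on the adjusted p (0.00185) and not the limit on the fold change. The upstream probe had the same order of means: -0.62 ± 0.36 in CH, 0.48 ± 0.33 in RPE and -1.91 ± 0.03 in PR (SD, n = 3). At this probe RPE again exceeded PR by 2.39 (5.24-fold) and exceeded CH by 1.10 (SE 0.20, 2.15-fold, adjusted p 0.00383), while CH minus PR, at 1.29 (2.44-fold), stayed just under the fold limit. The Vegfa difference between CH and PR at the 3′ probe was no longer called with slide as a block (1.23, limma adjusted p 0.00114). Nor was it called with Cy5 alone (1.29) or with the deposited log2 values (1.28).

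Vegfc, best known as a lymphatic growth factor, showed the widest range of the ligands. Its log2 ratio was 0.78, 0.94 and 0.52 in CH, 0.66, 1.33 and 1.00 in RPE, and -3.01, -3.21 and -3.34 in PR. CH and RPE overlapped (RPE minus CH 0.25, SE 0.18, limma adjusted p 0.379), and PR lay far below both. The fold was 18.1 for RPE over PR (log2 4.18, SE 0.18, adjusted p 5.98e-08) and 15.2 for CH over PR (log2 3.93).

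Vegfb and Pgf, the ligands of Flt1 alone, were lower in PR by smaller steps. Vegfb read 0.26, 0.30 and 0.11 in CH, 0.32, 0.51 and 0.31 in RPE, and -1.36, -1.33 and -1.36 in PR. Its RPE arrays lay above its CH arrays by as little as 0.01, and the difference of 0.15 (SE 0.10, limma adjusted p 0.302) did not pass, whereas PR was 3.32-fold below RPE and 2.98-fold below CH. Pgf read 1.12, 0.72 and 0.11 in CH, -0.12, 0.12 and 0.04 in RPE, and -1.26, -1.40 and -1.44 in PR. The CH arrays of Pgf spread more than those of any other member (SD 0.51) and reached down to the RPE arrays, so that RPE minus CH, -0.64 (SE 0.21), was not called (limma adjusted p 0.0586). RPE exceeded PR in Pgf by 2.60-fold (log2 1.38, SE 0.21, adjusted p 0.000366), close to the fold limit, and CH exceeded PR by 4.05-fold (log2 2.02). With slide as a block the Pgf difference between RPE and PR was not called (1.50, limma adjusted p 0.0121). Nor was it called with median centring (1.31), the Feature Extraction log ratio (1.22) or Cy5 alone (1.28).

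Figf was the dimmest of the called members and was printed at 10 spots of each array, which differed among themselves by an SD of 0.04 to 0.19. It read -0.24, 0.02 and 0.45 in CH and -0.43, -0.56 and -0.51 in RPE. All CH arrays lay above all RPE arrays, yet the difference, -0.58 (SE 0.17, limma adjusted p 0.0337), was not called. On the PR arrays the signal was not well above background, so the fold is given as a bound, on the scale of Cy5 after loess and Aquantile. On that scale Figf was at least 3.53-fold higher in CH and at least 2.25-fold higher in RPE than in PR. In the fit of the ratios both differences were called (limma adjusted p 3.85e-06 and 5.31e-05). The bound for RPE lies under the fold limit of the call. With Cy5 alone, quantile normalized, the differences were smaller, 1.77 for CH and 1.08 for RPE on the log2 scale, and the second was not called. These values lie under the bounds, which hold for the first scale only. The bound sets the mean Cy5 signal of the higher tissue against, on each PR array, the larger of the probe's own signal and the lowest signal well above background.

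The receptors of blood vessels overlapped between CH and RPE and were far lower in PR. Flt1 read 2.23, 2.02 and 1.68 in CH, 1.58, 2.10 and 1.82 in RPE, and -3.09, -2.13 and -2.65 in PR. CH and RPE overlapped (RPE minus CH -0.14, SE 0.24, limma adjusted p 0.741), and the fold over PR was 24.2 for CH (log2 4.60, SE 0.24) and 22.0 for RPE (log2 4.46, adjusted p 2.60e-07), the widest of the family in both comparisons. Kdr, at a probe printed 10 times with an SD between spots of 0.03 to 0.08, read 1.41, 0.78 and 0.87 in CH, 1.28, 1.42 and 1.18 in RPE, and -2.23, -1.49 and -1.55 in PR. Again the CH and RPE arrays overlapped (RPE minus CH 0.27, SE 0.22, limma adjusted p 0.437), and PR lay 8.27-fold below RPE (log2 3.05, SE 0.22, adjusted p 1.70e-06) and 6.85-fold below CH.

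The receptors are set here beside the markers of blood endothelium, whose levels are given above. Of those 18 markers, 16 were higher in RPE than in PR and 17 were higher in CH than in PR. Set against the mean of the list on the same array, Flt1 overlapped between the layers, from 0.18 to 0.25 in CH and from 0.06 to 0.47 in RPE, and its mean in PR was -0.43, with a highest value of 0.07. Kdr did not keep its distance from the list: it lay between -1.06 and -0.57 in CH, between -0.30 and -0.22 in RPE and between -0.14 and 0.75 in PR, with no overlap between the tissues. The part of endothelial RNA in the receptor levels of the RPE samples was not tested.

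The upstream Kdr probe gave a narrower picture than the 3′ probe. It read 0.60, 0.06 and -0.04 in CH, 0.46, 0.67 and 0.44 in RPE, and -0.25, 0.17 and -0.09 in PR, well above background on all arrays. RPE minus PR was 0.58 there (SE 0.18, limma adjusted p 0.0193) against 3.05 at the 3′ probe, and CH minus PR was 0.26 against 2.78. The call of Kdr against PR therefore rests on 1 of its 2 probes. The part of labelling from the 3′ end or of RNA integrity in this was not tested.

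Flt4 was near background, and none of its differences was called. Its probe was well above background on 2 CH, 3 RPE and 2 PR arrays and read 0.77, 0.18 and 0.07 in CH, 0.29, 0.36 and 0.45 in RPE, and 0.15, 0.09 and 0.06 in PR. The differences were 0.03 for RPE minus CH, 0.27 for RPE minus PR and 0.24 for CH minus PR, with an SE of 0.16 each and limma adjusted p-values of 0.924, 0.211 and 0.259. Whether the low signal hid a difference was not tested. Of 5 lymphatic markers, 1 was called against PR in each comparison, namely Pdpn, a membrane glycoprotein that other cells also carry. Prox1 and Lyve1, used as markers of lymphatic endothelium, were not called in any comparison. Both were well above background on all 3 PR arrays, so their result says little about lymphatic cells.

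**Figure D2:**
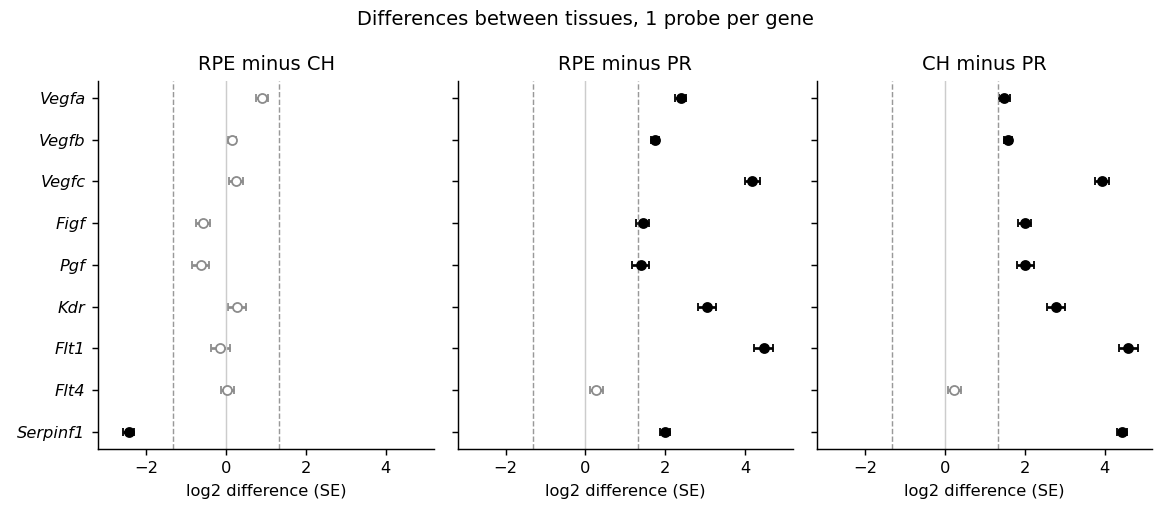
Log2 difference (horizontal axis) of each member between tissues, with its limma SE, at 1 probe per gene. Filled points were called (fold change above 2.5 and adjusted p below 0.01), open points were not, and dashed lines mark the fold limit. In RPE minus CH, Serpinf1 at -2.44 is the 1 filled point, and Vegfa, at 0.90, lies inside the line.

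Serpinf1, at its 3′ probe, was the 1 member called between every pair of tissues. The 3′ probe of Serpinf1 read 1.10, 1.20 and 0.71 in CH, -1.37, -1.43 and -1.49 in RPE, and -3.32, -3.57 and -3.39 in PR. No tissue overlapped another, and RPE lay below the mixed reference while CH lay above it. RPE was 5.42-fold lower than CH (log2 difference -2.44, SE 0.13, limma adjusted p 3.42e-05), RPE was 3.98-fold higher than PR (log2 1.99, adjusted p 1.15e-06), and CH was 21.6-fold higher than PR (log2 4.43, adjusted p 6.16e-09). The step between CH and RPE was present on both slides that held these tissues (-2.34 and -2.64).

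Fibroblast markers moved the same way as Serpinf1, as given above: 7 of 8 were lower in RPE than in CH, among them Col1a1, the main chain of type I collagen (-3.62), and Dcn, the matrix proteoglycan decorin, which was saturated on every CH array and at least 2.26-fold higher there. Dpt was the 1 marker of that list that was not called (0.28, limma adjusted p 0.2). The part of fibroblast RNA in the Serpinf1 levels was not tested.

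The upstream probe of Serpinf1 did not show the separation. It read -1.04, -1.72 and -2.01 in CH, -1.91, -2.19 and -1.85 in RPE, and -2.08, -2.27 and -2.23 in PR. CH and RPE overlapped, and RPE minus CH was -0.39 (SE 0.22, limma adjusted p 0.245). CH minus PR was 0.60 (SE 0.22, adjusted p 0.0388) against 4.43 at the 3′ probe. The probe was not dim: it was well above background on all 9 arrays, and the reference signal at it varied by an SD of 0.32 on the log2 scale, against 0.22 at the 3′ probe. In all 3 tissues it read below the mixed reference, although CH and RPE are the tissues that the reference was made of. In CH the 2 probes of the gene differed in this: the mean was -1.59 at the upstream probe and 1.00 at the 3′ probe. In RPE both lay below the reference (-1.98 and -1.43). List means of skeletal muscle markers (-2.13 in CH and -2.29 in RPE) and inner retina markers (-2.05 and -1.84) also lay below the reference. The cause was not tested. The call of PEDF between CH and RPE thus rests on 1 of its 2 probes. As for Kdr, the part of labelling from the 3′ end or of RNA integrity was not tested.

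**Figure D3:**
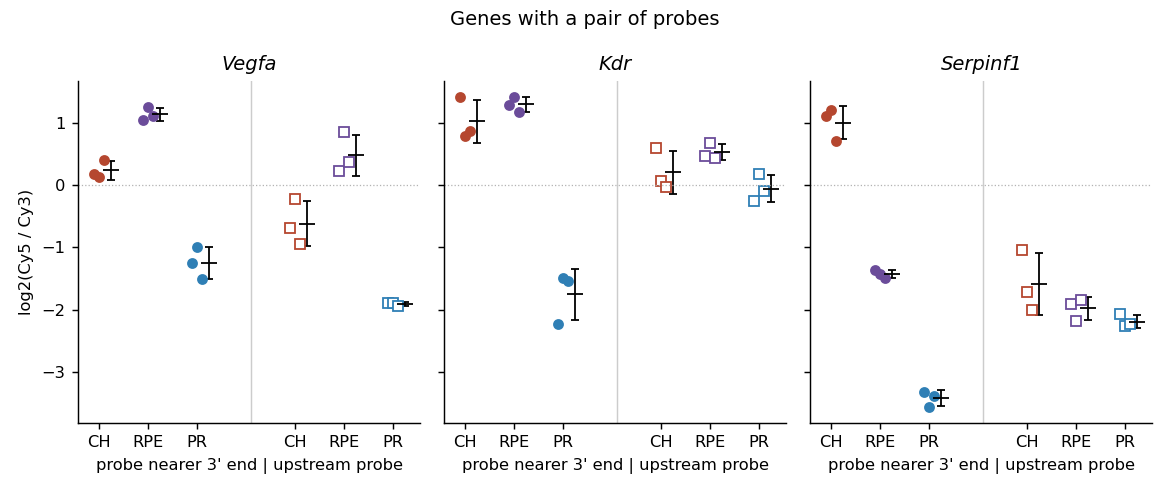
Log2 ratio of Cy5 to Cy3 (vertical axis) of Vegfa, Kdr and Serpinf1 on the arrays of CH, RPE and PR, at the probe nearer the 3′ end (filled circles) and the upstream probe (open squares), with mean and SD beside the points. The order RPE, CH, PR of Vegfa appears at both probes, while Kdr and Serpinf1 lose most of their distance from PR at the upstream probe.

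The balance of the angiogenic ligand and its counterpart was read as Vegfa minus Serpinf1 on each array, at the 3′ probes. Its own height has no meaning, since probes differ, so only its change between tissues is read. That change also depended on the probes, as the upstream pair shows below. It was -0.94, -1.07 and -0.31 in CH, 2.42, 2.68 and 2.60 in RPE, and 2.06, 2.58 and 1.88 in PR. All RPE and PR arrays lay above all CH arrays. The RPE mean exceeded the CH mean by 3.34 (2.57 ± 0.13 against -0.77 ± 0.41, SD, n = 3, exact two-sided permutation p = 0.1, adjusted over 3 comparisons 0.15), and CH minus PR was -2.94 (exact permutation p = 0.1, adjusted 0.15). Between RPE and PR the difference was 0.40 (exact permutation p = 0.2, adjusted 0.2) and the arrays overlapped. With 3 arrays against 3 the smallest p this test can give is 0.1. At the upstream probes of both genes, a reading added after the data were seen, the direction between CH and PR was the opposite: the values were 0.36, 1.48 and 1.07 in CH, 2.13, 3.04 and 2.22 in RPE, and 0.18, 0.38 and 0.28 in PR. CH minus PR was 0.69 there (exact permutation p = 0.2), RPE minus PR 2.18 and RPE minus CH 1.49 (exact permutation p = 0.1 each). At both pairs of probes every RPE array lay above every CH array.

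**Figure D4:**
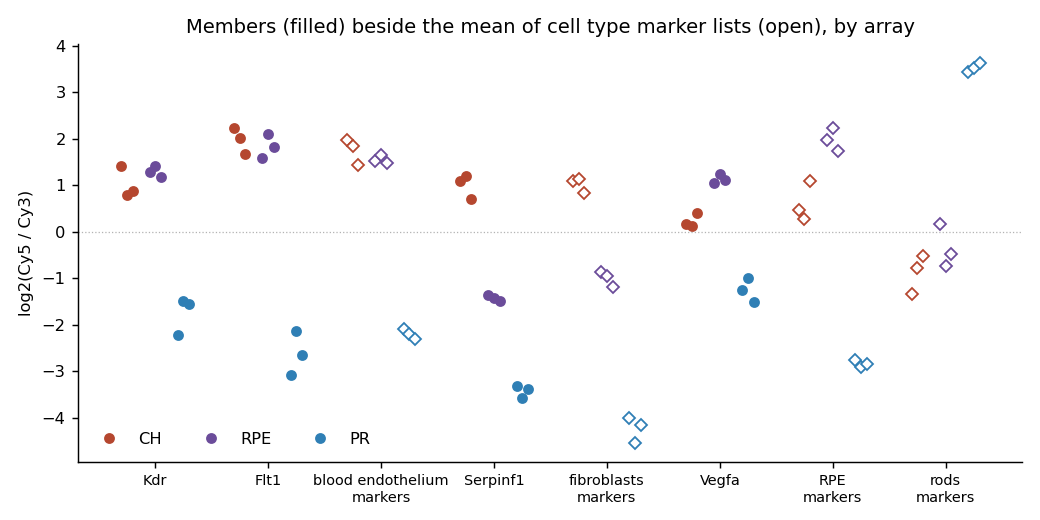
Log2 ratio of Cy5 to Cy3 (vertical axis) of Kdr, Flt1, Serpinf1 and Vegfa (filled circles) beside the mean of marker lists of blood endothelium, fibroblasts, RPE and rods (open diamonds), by array and tissue. Endothelial markers lie at 1.44 to 1.98 in CH and 1.47 to 1.64 in RPE, as Kdr and Flt1 overlap there, and fibroblast markers fall from CH to RPE as Serpinf1 does.

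Of 18 partners, genes whose proteins bind the VEGF receptors or signal from them, 8 were higher in RPE than in PR. In CH 8 were higher than in PR, and 0 were lower in either comparison, with medians of 1.41 and 1.27. Over all probes the shares higher were 10.2% and 12.0%, which also stand beside the counts of the lists below. The widest were Ptprb, the endothelial phosphatase that acts on Tie2 and Kdr signalling (5.49 for RPE minus PR and 6.37 for CH minus PR), and the co-receptors Nrp2 (4.64 and 5.76) and Nrp1 (3.98 and 4.20). Between RPE and CH, 0 of the 18 were called, and 8 had an unadjusted p below 0.05 in limma, 3 higher and 5 lower in RPE (17.9% and 15.7% over all probes).

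Genes known to respond to VEGF or to mark tip cells, the leading cells of vessel sprouts, were higher over PR in 7 of 12 cases for RPE and 8 of 12 for CH (medians 1.48 and 1.80). Nid2, a basement membrane nidogen, differed by 6.08 and 4.82, Esm1, an endothelial proteoglycan of tip cells, by 5.92 and 5.29, and Angpt2, a ligand of Tie2, by 2.69 and 3.02 (RPE minus PR and CH minus PR). In this list 1 gene was lower in RPE than in CH: Cxcr4, the receptor of the chemokine Cxcl12, with a difference of -1.63 (SE 0.26, limma adjusted p 0.00199). That call was lost without RPE replicate 2, and with the Feature Extraction log ratio, Cy5 alone or the deposited log2 values.

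Other angiogenic ligands and receptors, 16 genes, mostly of the angiopoietin, Notch, ephrin and PDGF systems, were higher in RPE than in PR for 13 and higher in CH than in PR for 12, with medians of 2.65 and 2.86. Of these, Eng, Tek and Tie1 are also in the endothelial marker list. Pdgfrb, the receptor of pericytes, differed by 5.10 and 6.16, and Ephb4, a receptor of venous endothelium, by 3.44 and 3.97. Angpt1, which stabilises vessels through Tie2, was not well above background on any PR array, and was at least 49.8-fold higher in RPE and at least 168-fold higher in CH. It was also the 1 gene of the list lower in RPE than in CH (-1.77, SE 0.22, limma adjusted p 0.000657). The Notch ligand Jag1 ran against the list and was higher in PR (-1.52 for RPE minus PR and -1.34 for CH minus PR). The second of these Jag1 calls was lost without PR replicate 1 and with slide as a block.

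Inhibitors of angiogenesis other than PEDF were read in 11 genes, of which 5 were higher in RPE than in PR and 6 were higher in CH than in PR (medians 0.60 and 1.36). Thbs1, thrombospondin 1, differed by 5.96 and 5.66. Timp3, a metalloproteinase inhibitor of Bruch's membrane that also blocks Kdr, was saturated on every RPE and CH array, so it was at least 7.78-fold higher in RPE and at least 7.28-fold higher in CH than in PR, and its difference between RPE and CH was not measured. Col18a1, the collagen from which endostatin is cut, differed by 4.39 and 3.77. Between RPE and CH 0 of the 11 were called (7 at an unadjusted p below 0.05 in limma, 3 higher and 4 lower in RPE, against 17.9% and 15.7% of all probes). Timp3 is counted among the 3 higher, at its saturated signal. Col4a3, also among them, differed by 1.31 (limma adjusted p 0.000129) and missed only the fold limit.

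Proteins proposed as PEDF receptors were mostly lower in PR as well. Of 6, 4 were called over PR in both comparisons (medians over the list 2.25 and 3.06): Plxdc2 (2.65 and 4.13), Plxdc1 (2.86 and 3.55), Lrp6 (2.27 and 3.28) and Pnpla2, a lipase (2.23 and 2.85). Lrp6 had the largest SE of the list (0.56, limma adjusted p 0.00692 for RPE minus PR). The count for RPE over PR fell to 3 with the Feature Extraction log ratio, Cy5 alone or the deposited log2 values. Plxdc2 was lower in RPE than in CH, in the direction of Serpinf1 (-1.48, SE 0.14, limma adjusted p 0.000185). Atp5b, a subunit of the ATP synthase, and Rpsa, a ribosomal protein also described as a laminin receptor, were not called.

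The oxygen-sensing genes that are known to control Vegfa went in both directions. Of 9 regulators (medians -0.05 for RPE minus PR and 0.50 for CH minus PR), Epas1, which encodes the hypoxia-inducible factor 2 alpha, was saturated on every RPE array and on 2 CH arrays. It was at least 3.19-fold higher in RPE than in PR, and CH exceeded PR by 2.94 with those 2 arrays at their saturated signal. Hif1a was lower in both (-1.81 and -2.32) and Hif1an, which inhibits it, was lower in CH than in PR (-1.36). Egln1, an oxygen-sensing hydroxylase, was the other regulator lower in CH than in PR (-1.32). Of these 3 genes lower in CH than in PR, 1 was still called without CH replicate 2. Of 12 target genes, 3 were higher and 3 lower in RPE than in PR (10.2% and 5.22% over all probes). In CH, 2 were higher and 3 lower than in PR (12.0% and 6.40% over all probes). The medians were -0.38 and -0.17. Slc2a1, the glucose transporter of the blood-retina barrier, was higher (4.04 and 2.40, with 2 RPE arrays and 1 CH array saturated), Adm, the vasodilator adrenomedullin, was higher (2.81 and 4.43), and Ldha, lactate dehydrogenase, was lower in RPE and CH (-3.65 in each), as was Ankrd37 (-2.46 and -2.60). Adm was the 1 target called between RPE and CH and was lower in RPE (-1.62, SE 0.19, limma adjusted p 0.000479), opposite to Vegfa. The targets as a list went both ways there. At an unadjusted p below 0.05 in limma, 3 of 12 were higher in RPE and 4 were lower (17.9% and 15.7% over all probes). Pgk1, for example, differed by 0.85, in the direction of Vegfa, and was not called.

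**Figure D5:**
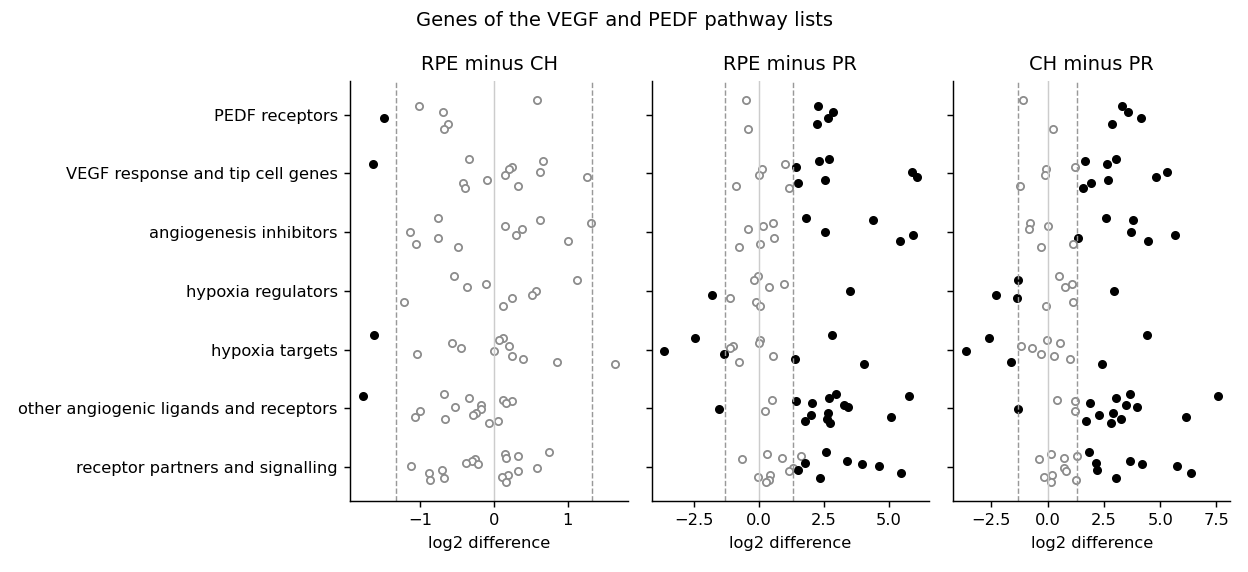
Log2 difference between tissues (horizontal axis, its range set for each panel) of every gene of the 7 pathway lists, 1 probe per gene. Filled points were called, open points were not, and dashed lines mark the fold limit. Filled points lie mostly to the right in RPE minus PR and CH minus PR, except in the lists on hypoxia, and 4 points are filled in RPE minus CH, all to the left.

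Over the 9 arrays, many probes had a profile close to that of each member, because the arrays fall into 3 tissues. Among 26568 probes well above background on all arrays of a tissue, the highest Pearson correlations were with Plvap, Rapgef3 and Nde1 for Vegfc (0.999 each). Plvap, which forms the diaphragms of fenestrated capillaries, was also among the first for Vegfb (0.998), with Cmtm8 and Eif4g1 (0.998 each). For Vegfa the first were Rpl15 (0.998), Gabrb1 and Wipi1 (0.997 each), and for Flt1 they were Nfib (0.999), Rps6ka1 and Cib1 (0.998 each). Pgf was followed by Smoc1 (0.997), Rab3d and Tpm2 (0.996 each), Figf by Dennd2d (0.993), Vps54 and Gmfb (0.992 each), and Kdr by 9530068E07Rik, Oplah and Cog4 (0.993 each). For Serpinf1 an unnamed transcript (0.999) was followed by 9030409G11Rik and Abcc3 (0.998 each). Flt4 had the weakest likeness, with Txnip (0.948), Ano6 (0.935) and Pqlc3 (0.928).

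The promoters of the members that stood out are shown for context, as the 250 bases before the transcript start in RefSeq, build GRCm38.p6. In Kdr and Flt1, the endothelial receptors, capitals mark GGAA or its complement TTCC, the core that factors of the ETS family bind, and in Serpinf1 capitals mark the E-box CACATG, searched on both strands.
Kdr, chr5:75978456-75978705: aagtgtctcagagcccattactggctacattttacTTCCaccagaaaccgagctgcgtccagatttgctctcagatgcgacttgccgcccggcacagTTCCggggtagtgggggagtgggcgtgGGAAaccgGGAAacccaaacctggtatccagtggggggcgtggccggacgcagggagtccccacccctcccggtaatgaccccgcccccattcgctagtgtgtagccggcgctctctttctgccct
Flt1, chr5:147726012-147726261: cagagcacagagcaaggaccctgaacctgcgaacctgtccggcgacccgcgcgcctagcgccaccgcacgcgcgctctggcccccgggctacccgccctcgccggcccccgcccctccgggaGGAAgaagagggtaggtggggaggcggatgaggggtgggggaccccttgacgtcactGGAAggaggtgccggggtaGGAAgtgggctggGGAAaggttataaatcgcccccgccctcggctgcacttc
Serpinf1, chr11:75422624-75422873: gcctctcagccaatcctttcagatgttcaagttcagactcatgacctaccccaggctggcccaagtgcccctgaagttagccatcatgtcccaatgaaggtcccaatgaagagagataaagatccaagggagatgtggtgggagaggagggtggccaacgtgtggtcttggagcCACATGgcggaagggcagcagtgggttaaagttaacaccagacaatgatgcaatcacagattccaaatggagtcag
Kdr and Flt1 held 4 matches to GGAA each, where 93.4% of 32851 promoter windows held at least 1 and the median was 3. All 3 windows lie on the minus strand and are written in the sense direction. Serpinf1 held 1 match to CACATG, at position -76 from the start, as did 12.3% of all windows, and among the members Vegfb also held 1. The hypoxia core ACGTG was found, on either strand, in 1 of 2 Vegfa windows and in Serpinf1, and in 16.6% of all windows. All 9 members had a window in the table, Vegfa and Pgf 2 each.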

How the data were processed

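The authors deposited the Feature Extraction (version 9.5.3.1) output of 9 dual-colour Agilent arrays, whose mean signals and median local backgrounds are intensity values as scanned and were the starting point. They also deposited, per spot, the software's ratio of the processed channels on a log10 scale, and a table of log2 Cy5 expression (r of 0.9845 to 0.9991 with the scanned signal, column medians 9.38 to 9.55) whose normalization is not given in the sources used here. Both were alternatives only. Marks for outlier, saturated and dim spots were used as deposited. RNA had been amplified from the laser-cut tissue before labelling, and the paper's methods name a linear model in R 2.14.0 with limma.

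Background was corrected with normexp (offset 50), ratios were normalized within arrays by loess with control spots at weight 0, outlier spots were left out (228 to 586 per array of 43020), and spots of a probe were averaged (399 probes). Tissue means of all 9 arrays entered 1 limma fit (limma 3.58.1, R 4.3.3). Figures used Python 3.11.15 and matplotlib 3.10.9. The Cy5 bounds used Aquantile. No member probe counted as saturated in Cy5. A probe printed several times counted so when at least 50% of its spots were saturated. Saturation in Cy3 was not checked. Where a listed gene was saturated on every array of a tissue, its fold is given as a bound, and list means and medians hold saturated signals at their value. Precision is limited by having 3 arrays a tissue, and p-values measure the spread between eyes.

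The members, lists and tests were chosen with earlier results of these data known. Named genes were the members at every probe, from each pathway list the 3 genes with the largest called difference per comparison, the 3 probes most like each member, and markers as listed; other genes were named after their values were seen. Marker lists covered blood and lymphatic endothelium, fibroblasts, pericytes and smooth muscle, macrophages, melanocytes, RPE, rods, inner retina, Müller glia, red blood cells and skeletal muscle. The fit was tested on simulated data. The sequence of 1 probe is not reported here.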

Additional observations from a re-analysis of the deposited data

How the results depend on the processing

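At the 3′ or only probes, the count of members called did not change between RPE and CH under any alternative (0 higher in RPE, 1 higher in CH). Against PR it went down to 6 for RPE and to 7 for CH. Of 21 alternatives, Pgf in RPE minus PR lost its call in 4 (median centring 1.31, the Feature Extraction log ratio 1.22, Cy5 alone 1.28 and slide as a block 1.50), Vegfa in CH minus PR in 3 (Cy5 alone 1.29, the deposited log2 values 1.28 and slide as a block 1.23), Figf in RPE minus PR in 1 (Cy5 alone 1.08) and Vegfb in CH minus PR in 1 (the Feature Extraction log ratio 1.30). The other called differences at the 3′ or only probes passed in all 21, Serpinf1 in RPE minus CH with values from -2.93 to -2.33. The upstream Vegfa probe gained a call in RPE minus CH at a fold change above 2 (1.10), and in CH minus PR at that limit (1.29), with median centring (1.48), with slide as a block (1.65) and without CH replicate 3 (1.45).

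No value that had been called changed direction. Uncalled values that did were Vegfb (-0.13), Vegfc (-0.01) and Kdr (-0.01) in RPE minus CH with median centring, the upstream Serpinf1 probe in RPE minus PR (median centring -0.10, Feature Extraction log ratio -0.07, Cy5 alone -0.13), and Flt4 in RPE minus CH without CH replicate 2 (-0.05), CH replicate 3 (-0.10) or RPE replicate 3 (-0.01). The cause was not tested. With each array left out in turn, the counts against PR stayed at 8 and Vegfa minus Serpinf1 ranged from 3.19 to 3.57 in RPE minus CH, from 0.25 to 0.60 in RPE minus PR and from -3.18 to -2.74 in CH minus PR. At the upstream probes of both genes, an alternative chosen after seeing the data, Vegfa minus Serpinf1 turned its direction in CH minus PR (0.69) and kept it in RPE minus CH (1.49) and RPE minus PR (2.18). With the replicate number as a block the counts were the same, 0, 1, 8 and 8, and the deviations of same-numbered arrays correlated at r from -0.107 to 0.325. The 3 arrays numbered 2, which share a slide, correlated at 0.199 to 0.296, but not every pair did, so the numbers were not taken to pair samples. With Cy5 alone 53.0% of the calls between RPE and PR over all probes were higher in RPE, against 66.3% in the fit reported.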

Other observations

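Cell types beyond those named above were read with marker lists. Over all probes, 10.2% were higher in RPE than in PR, 12.0% in CH than in PR and 1.55% in CH than in RPE. In PR, 5.22% were higher than in RPE and 6.40% higher than in CH. Of 8 pericyte and smooth muscle markers, 7 were higher in RPE than in PR and 8 in CH than in PR, and 2 were lower in RPE than in CH: Tagln (-1.92) and Cnn1 (-1.74), both of smooth muscle. Melanocyte markers were higher than in PR for 8 of 8 in both tissues, and 3 were lower in RPE than in CH, among them Tyrp1, an enzyme of melanin synthesis, which was saturated on every CH array and at least 1.40-fold higher there. Macrophage markers were higher than in PR for 4 of 8 in RPE and 6 of 8 in CH, with 3 lower in RPE than in CH, among them Emr1 (-1.99).

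Of 8 Müller glia markers, 4 were higher than in PR in both comparisons and 1, Dkk3, was lower in RPE than in CH (-1.45). Inner retina markers were higher in PR for 2 of 9 in both comparisons, Grm6 and Prkca, which bipolar cells carry, and 1, Thy1, was higher in CH than in PR (1.88). Red blood cell and skeletal muscle lists, of 5 and 7 genes, each had 1 gene higher than PR in both comparisons. These were Alas2 (1.54 and 1.39) and Acta1 (1.61 and 1.96). Over all probes 10.2% and 12.0% were higher, so 1 gene in lists of this size says little about these cell types.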
